A study of Mus musculus with 4 samples.

Results

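Chaperone-high basal cells are the basal mammary epithelial cells of this series with the most transcripts of 5 genes of the endoplasmic reticulum (ER): Derl3, Sdf2l1, Creld2, Dnajb9 and Pdia4. They were chosen from cells with at least 1000 UMIs (unique molecular identifiers, each standing for 1 captured transcript). A cell counted as basal when the UMIs of Krt5, Krt14, Krt17 and Acta2 came to at least 5 and to more than 3 times those of the luminal keratins Krt8, Krt18 and Krt19. The top 5% of basal cells over all libraries, by UMIs of the 5 genes per 10000 UMIs, were taken as chaperone-high. This gave 351 of 7028 basal cells, out of 18223 deposited cells, and left 6677 other basal cells for comparison.

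All 4 libraries came from mammary epithelial cells of the fourth glands of FVB mice, harvested at 9 weeks of age, with 1 mouse in each library. Every mouse, the vehicle controls included, carried the genotype given as Tfap2cfl/fl / Krt5-CreERT2, so that Tfap2c, which encodes the transcription factor AP-2γ, was floxed on both alleles. Recombination needs Cre from the Krt5 promoter, active in basal cells, and 4-hydroxytamoxifen (4OHT), which activates CreERT2. Injections of corn oil (2 mice) or 4OHT (2 mice) began at 4 weeks of age. Their length is given in different ways in the labels (5 days in one field), and no result here rests on it.

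Proteins bound for the surface or for secretion enter the ER, where chaperones and disulfide isomerases fold them. When folding demand exceeds capacity, the unfolded protein response starts from the sensors IRE1, ATF6 and PERK. IRE1 splices Xbp1, ATF6 is cut to a transcription factor, and both raise chaperones and degradation factors, while PERK slows translation and favours ATF4 and its target CHOP. Basal mammary cells are myoepithelial: they contract to eject milk and lay down the basement membrane, whose proteins pass through the ER.

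The deposited matrices held between 3546 and 5545 cells and between 17351950 and 22017878 UMIs per library, over 31053 genes. In all that follows, 4 values in a row are those of corn oil replicate 1, corn oil replicate 2, 4OHT replicate 1 and 4OHT replicate 2. Tfap2c, the floxed gene, differed between 4OHT and corn oil libraries by less than the spread between replicates, both in chaperone-high and in other basal cells (values below), so directions by treatment rest on the labels alone. The 2 libraries numbered 1 were deeper per cell than those numbered 2, and in some clusters of basal cells, though not in all, cells came almost wholly from one number. A total of 155 cell barcodes occurred in more than 1 library. Of the chaperone-high cells, 5 had such a barcode, and none shared it with another chaperone-high cell.

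The promoters of several genes described here hold known binding elements of the response, and they are printed to show how the motifs read. Promoter windows came from RefSeq (GRCm38.p6) and ran from 250 bases before to 50 bases after the gene start. Both strands were searched for 4 motifs. The ER stress response element (ERSE) was searched as CCAAT, then 9 bases of any kind, then CCACG. ERSE-II was ATTGG, 1 base of any kind, CCACG. The unfolded protein response element (UPRE) was TGAC followed directly by GTGG, and the element shared by C/EBP and ATF factors (CARE) was TGATG, 1 base of any kind, AA. All 5 score genes had a window. Derl3 and Creld2 held an ERSE in it, on the strand opposite to the gene, so it reads as the reverse complement here. Sdf2l1, Dnajb9 and Pdia4 held none of the 4 motifs. The sequences below run 5′ to 3′ along the gene's strand, with the fixed letters of the match in capitals and 20 bases shown on each side, or fewer where the gene start was reached first. Derl3 (chr10:75893222-75893280, plus strand) and Creld2 (chr15:88819500-88819558, plus) are score genes. Hspa5 (chr2:34772005-34772063, plus), Hsp90b1 (chr10:86705513-86705676, minus), Pdia6 (chr12:17266471-17266529, plus) and Dnajc3 (chr14:118937807-118937865, plus) are chaperone genes that the choice of cells did not use.
Derl3: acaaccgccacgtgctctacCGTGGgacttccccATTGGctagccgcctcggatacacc
Creld2: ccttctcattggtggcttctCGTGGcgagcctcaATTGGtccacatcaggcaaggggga
Hspa5: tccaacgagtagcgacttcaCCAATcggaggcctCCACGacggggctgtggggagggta
Hsp90b1: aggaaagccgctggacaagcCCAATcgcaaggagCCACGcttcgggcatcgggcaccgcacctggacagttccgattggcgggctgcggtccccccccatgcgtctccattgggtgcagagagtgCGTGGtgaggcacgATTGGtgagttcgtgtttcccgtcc
Pdia6: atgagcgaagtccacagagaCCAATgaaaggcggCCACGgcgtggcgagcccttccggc
Dnajc3: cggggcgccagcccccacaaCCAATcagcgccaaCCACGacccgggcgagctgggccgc
Hsp90b1 held 2 matches to ERSE, one in each orientation. The next 4 show the other elements. Herpud1 (chr8:94386297-94386407, plus) held an ERSE-II and a CARE, and Nupr1 (chr7:126625553-126625600, minus), Chac1 (chr2:119351029-119351076, plus) and Asns (chr6:7693210-7693252, minus), all from the list of ATF4 and CHOP targets, held a CARE.
Herpud1: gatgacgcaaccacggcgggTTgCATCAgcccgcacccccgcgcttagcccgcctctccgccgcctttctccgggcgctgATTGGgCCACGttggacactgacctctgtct
Nupr1: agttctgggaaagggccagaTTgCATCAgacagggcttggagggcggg
Chac1: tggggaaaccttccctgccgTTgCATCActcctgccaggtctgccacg
Asns: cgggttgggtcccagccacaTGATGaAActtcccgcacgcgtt
Shares were counted per gene. An ERSE occurred in 37 of the 27025 genes with a RefSeq window (0.137%) and in 11 of 6891 tested genes with one (0.160%). It occurred in 6 of 26 such genes on the list of ER chaperones. Of genes higher in chaperone-high cells 8 of 1014 held it (0.789%), and of genes lower in them 0 of 1239. ERSE-II occurred in 12 of all genes with a window (0.0444%), in 8 tested genes (0.116%) and in 7 higher genes (0.690%). A UPRE occurred in 0.714% of all genes with a window and in 1.16% of tested genes. It occurred in 34 higher genes (3.35%) and 10 lower genes (0.807%). CARE occurred in 4.51% of all genes with a window, in 2.68% of tested genes, and in 12 of 33 on the list of ATF4 and CHOP targets. It occurred in 47 higher genes (4.64%) and 38 lower genes (3.07%). These are matches of letters only.

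The score genes themselves describe the choice and carry no test. The lowest score among the chosen cells was 65.2 UMIs per 10000 and the highest outside was 65.1, so the limit cut through a continuous range. The median was 80.1 among chaperone-high cells, with a maximum of 180.2, and 5.89 among other basal cells, of which 24.7% had no UMI of the 5 genes. A chaperone-high cell held a median of 34 such UMIs, and another basal cell 2. Luminal keratin cells, defined by the mirror image of the basal rule, pooled 3.58 to 4.97 UMIs per 10000 in the 4 libraries, below the 12.1 to 17.1 of other basal cells.

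Dnajb9, a co-chaperone of the ER chaperone BiP, lies on chromosome 12 (44205559 to 44210326, minus strand, GRCm38) and was at 2471, 2298, 4778 and 2736 CPM (UMIs scaled to a total of 1000000 per library and cell group) in chaperone-high cells, against 848, 623, 1053 and 729.9 in other basal cells. It was highest in 4OHT replicate 1. Sdf2l1, a partner of BiP complexes on chromosome 16 (17130138 to 17132383, minus), was at 2052, 2848, 1605 and 3139 CPM, against 314, 335, 281 and 393. Creld2, a stress-induced ER protein on chromosome 15 (88819646 to 88826683, plus), was at 1332, 2003, 708 and 1641 CPM, against 143, 132, 104 and 160.0. Both were higher in the libraries numbered 2. Derl3, a membrane protein of ER-associated degradation on chromosome 10 (75893413 to 75895941, plus), was at 305, 539, 102 and 332 CPM, against 12.8, 23.3, 11.2 and 22.5, and was thus by far the rarest of the 5 in 4OHT replicate 1. Pdia4, a disulfide isomerase on chromosome 6 (47796141 to 47813430, minus), was at 2444, 932, 1291 and 421 CPM, against 309, 97.1, 257 and 62.0. Pdia4 was higher in the libraries numbered 1, in both kinds of cell, so the same score was reached with a different mix of genes in different libraries.

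To see how far counting noise put cells over the limit, each cell's UMIs were split at random into 2 equal parts and the top 5% were chosen on the first part. Of the 351 cells chosen so, 275 (78.3%) were also chaperone-high by all UMIs. Their pooled score was 87.8 in the UMIs used to choose them and 76.2 in the others, against 15.4 in the remaining basal cells. Derl3 in the UMIs not used for choosing was at 289, 489, 71.2 and 322 CPM in the chosen cells and 16.1, 25.1, 11.6 and 25.5 in the remaining ones. The plot of the score genes shows these held-out values beside the others.

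**Figure D1:**
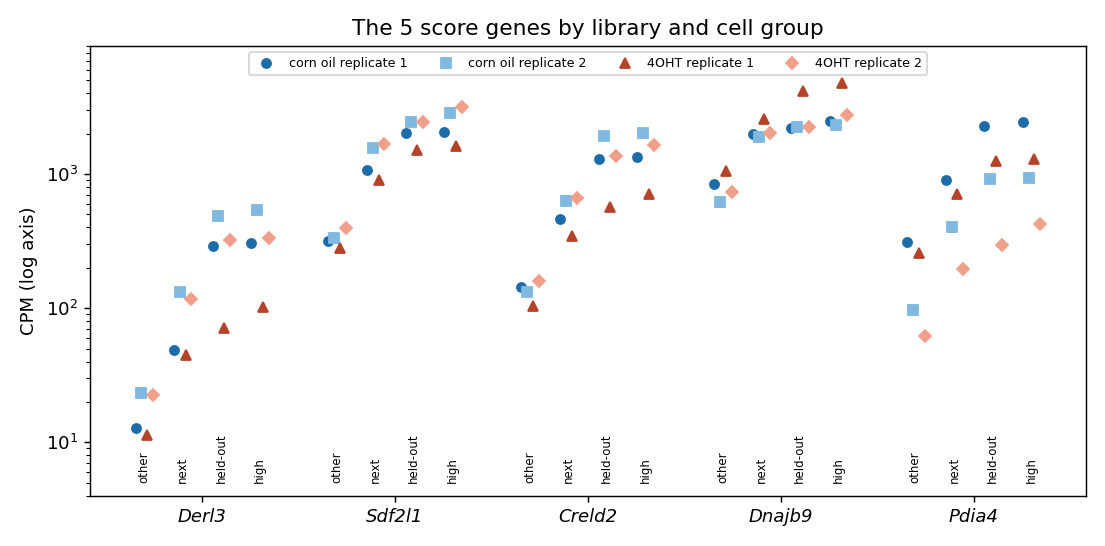
CPM (log axis) of the 5 score genes in each of the 4 libraries, for other basal cells, basal cells next in score (80th to 95th percentile, part of the other basal cells), cells chosen on 1 random part of their UMIs and measured in the held-out part, and chaperone-high cells. Pdia4 separates the libraries numbered 1 from those numbered 2 in every group of cells, and the held-out values lie close to those of the chaperone-high cells.

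Chaperone-high cells held more UMIs than other basal cells in each library, with medians of 6163.5, 3672.5, 4608 and 3116 against 5113, 3114, 3794 and 2811. Their median share of mitochondrial UMIs was 1.58%, 1.77%, 1.44% and 1.88%, against 1.90%, 2.15%, 1.44% and 2.20%, and no chaperone-high cell was above 10%. A high doublet score was found in 2 of them. The basal label was checked against its markers. Krt14, a keratin of basal epithelium, was at 1247, 958, 2011 and 1449.6 CPM in chaperone-high cells and 4035, 5843, 5308 and 6518 in other basal cells, lower in each library. Acta2, the smooth muscle actin of myoepithelium, was at 2545, 5348, 7019 and 5112 CPM against 4056, 6338, 4691 and 5948, lower in 3 libraries and higher in 4OHT replicate 1. Krt18, a luminal keratin, was at 353, 290.1, 1143 and 556 CPM against 595, 579, 829 and 814, and again only 4OHT replicate 1 was higher. In luminal keratin cells Krt18 was at 10003, 7838, 14875 and 9262 CPM. Krt19, another luminal keratin, went the other way and was higher in each library, at 145, 347, 149 and 297 CPM against 97.9, 104, 82.3 and 94.7. In luminal keratin cells Krt19 was at 679, 684, 684 and 1002 CPM. These genes belong to the rule and were not tested. Of markers outside the rule, Trp63, a transcription factor of basal epithelium, was lower at 36.3, 15.4, 18.9 and 31.9 CPM against 85.0, 73.0, 68.0 and 72.7 (log2 fold change −1.64, SE 0.23), and Myh11, smooth muscle myosin, was at 220.0, 257, 368 and 188 CPM against 209.8, 224, 233 and 174, with a log2 fold change of 0.19 (SE 0.14) that did not pass the test.

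High ER genes are also a known feature of plasma cells, and markers of other cell types were therefore summed. Of 11 plasma cell markers, 7 had no UMI in chaperone-high cells, Jchain, Mzb1, Ighm and Igha among them. In other basal cells these named genes were at no more than 0.33 CPM in any library. The list summed to 10.3 to 21.8 CPM per library, against 51.1 to 76.8 in other basal cells. Sdc1 carried both sums, with 18 of 23 UMIs in chaperone-high cells and 1477 of 1691 in other basal cells. The lower sum is thus mainly a difference in Sdc1. Of 12 leukocyte markers, 9 had no UMI, Ptprc among them. That list nevertheless summed to 56.7 to 202.8 CPM against 36.8 to 55.1, because Cd74, the invariant chain of MHC class II, was at 60.4, 128, 9.44 and 41.5 CPM against 8.73, 12.0, 7.07 and 9.56 (log2 fold change 2.52, SE 0.29), and Cd68, a lysosomal protein, was also higher (0.92, SE 0.20). The part of leukocyte transcripts in other results was not tested. Luminal progenitor markers summed to 907 to 2342 CPM against 1505 to 3136, with Kit at 0, and 6 of the 9 tested were lower. Plet1, of the same list, was higher at 338, 701, 290.4 and 795 CPM against 181, 276, 136 and 239. Pericyte markers summed to 146 to 434 CPM against 88.9 to 146, with 6 of 10 at 0, Rgs5 and Cspg4 among them, and Ndufa4l2 carried the sum at 401, 434, 139 and 217 CPM against 122, 99.7, 50.1 and 62.5. Endothelial markers summed to 4.72 to 54.3 CPM against 18.5 to 107.3, with 8 of 12 at 0. Hormone-sensing luminal markers summed to 26.6 to 105.4 CPM against 161 to 237.6, with 3 of 12 at 0, Foxa1 among them. Fibroblast markers summed to 147 to 751 CPM against 364 to 874, with 6 of 12 at 0, Col1a1 among them. Postn carried that sum, with 554 of its 570 UMIs in chaperone-high cells. The sum was lower in each library except 4OHT replicate 1, where it was 751 against 739 CPM.

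The wider program was measured by summing raw UMIs per library over chaperone-high and over other basal cells and comparing the 8 sums with edgeR's quasi-likelihood test, with library as a block and Benjamini-Hochberg adjustment over all genes. The 12 genes of the rule were left out. Of 8803 genes tested, 1291 were higher (14.7%) and 1652 lower (18.8%) at an adjusted p under 0.05, together 2943 (33.4%). Counts of listed genes below are to be read against these shares. Among those called, 619 were at least 2-fold higher and 1154 at least 2-fold lower, and the median log2 fold change over all genes was −0.06. Genes could pass the filter on low counts through the other basal cells alone, which held far more UMIs. The lower calls therefore include genes near 0 in chaperone-high cells, and the 2 counts are not on equal terms. The cells were sorted on ER genes and depth differed between the groups, so this comparison describes what varies along with the score within each library.

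ER chaperones and folding helpers were higher almost throughout: 28 of 31 tested passed the test, 0 were lower, and the median log2 fold change was 1.66. Hspa5, which encodes BiP, the main ER chaperone, was at 16119, 15524, 11398 and 9563 CPM in chaperone-high cells and 3408, 2419.6, 2791 and 1832 in other basal cells. The groups did not overlap, and the fold was 4.76 (log2 2.25, SE 0.11, edgeR adjusted p 9.37e-20). Hsp90b1, the ER form of HSP90, was at 7883, 6750.4, 4752 and 4709 CPM against 1712, 1089, 1203 and 936 (log2 2.20, SE 0.11). Hyou1, a nucleotide exchange factor for BiP, was at 138, 159, 82.6 and 105 CPM against 33.2, 24.1, 26.7 and 20.2. Hspa5 and Hsp90b1 were thus highest in the corn oil libraries, whereas Manf, a small secreted ER stress protein, was highest in the libraries numbered 2, at 3962, 5621, 3194 and 5006 CPM against 1046, 1024, 943 and 1059 (log2 2.01, SE 0.11). Pdia6, a disulfide isomerase, varied little, at 2176, 2665, 1905 and 2110.5 CPM against 601, 497, 477 and 531. Fkbp11, a prolyl isomerase of secretory cells, was 4.83-fold higher, at 198, 306, 111 and 297 CPM against 41.9, 50.1, 37.5 and 41.1. Dnajc10, Sdf4 and Selenom did not pass, with log2 fold changes of 0.14, 0.01 and 0.02.

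ER-associated degradation, which returns misfolded proteins to the cytosol, moved in part. Of 23 genes tested, 15 were higher and 0 lower, with a median log2 of 0.81. Sel1l, the adaptor of the HRD1 ubiquitin ligase, was at 413, 429, 217 and 313 CPM against 93.5, 66.5, 65.8 and 57.1 (log2 2.18, SE 0.15). Herpud1, a scaffold of the same complex, was at 1264, 1405, 895 and 948 CPM against 319, 228, 233 and 201 (log2 2.12, SE 0.13). Derl2, a relative of the score gene Derl3, was 3.83-fold higher, and Selenos, which recruits the ATPase p97, 3.27-fold. All 4 libraries were higher for each of these genes. The cytosolic side included members that did not pass, such as Ube2j2 (−0.11), Nploc4 (−0.10) and Rnf5 (−0.10), and Vcp, the gene for p97, was higher by 0.70 on the log2 scale. These 4 were named after their values were seen.

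Entry into the ER and the later steps of the secretory route were also higher. Of the translocon and signal peptide genes 20 of 24 were higher and 0 lower (median log2 1.14), of the N-glycosylation genes 16 of 23 and 0 (1.41), and of the genes for traffic between ER and Golgi 30 of 32 and 0 (1.10). Sec61b, a subunit of the translocon channel, was at 945, 1089, 814 and 1181 CPM against 421, 349, 344 and 362. Sec11c, a catalytic subunit of the signal peptidase, was at 428, 516, 517 and 699 CPM against 125, 126, 173 and 181 (log2 1.75, SE 0.13). Both were higher in each library, Sec61b by the smaller factor. Ddost, a subunit of the oligosaccharyl transferase that attaches N-glycans, was at 471, 472, 423 and 450.2 CPM against 139, 127, 139 and 132, nearly even across libraries. Lman1, the ER-Golgi cargo receptor ERGIC-53, was 3.82-fold higher, and Tmed9 and Tmed2, of the p24 family of cargo receptors, 2.47-fold and 2.24-fold.

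Among the sensors and transcription factors of the response, 12 of 18 tested were higher and 1 was lower (median log2 0.89). Ddit3, which encodes CHOP, was at 1479, 2239, 1036 and 1552 CPM against 356, 386, 305 and 375 (log2 2.02, SE 0.13, edgeR adjusted p 3.9e-16). Wfs1, an ER membrane protein, was 6.09-fold higher from 98 UMIs in chaperone-high cells. Xbp1 was at 389, 395, 467 and 348 CPM against 178, 151, 172 and 173 (log2 1.17, SE 0.14). Counts from the 3′ end do not tell the spliced form of Xbp1 from the unspliced one. Atf6 was higher by 1.69 (SE 0.22). Atf4, whose protein is controlled mainly by translation, was higher by 0.50 (SE 0.12), and Ern1, the gene for IRE1, had 10 UMIs in chaperone-high cells and did not pass (0.53, SE 0.58). The gene that was lower was Bcl2l11 (−0.91, SE 0.35), which encodes the pro-apoptotic protein BIM. Atf4, Ern1 and Bcl2l11 were named after their values were seen.

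Targets of ATF4 and CHOP were higher in 36 of 39 tested genes and lower in 2, with a median log2 of 1.28. They include amino acid synthesis, one-carbon metabolism and transfer RNA charging. Stc2, a secreted stress-induced glycoprotein, was at 215, 267, 77.9 and 227 CPM against 35.9, 39.5, 19.4 and 35.5 (log2 2.47, SE 0.17). Phgdh, the first enzyme of serine synthesis, was at 58.0, 74.5, 113 and 105 CPM against 15.8, 10.4, 31.9 and 18.6, and Psph, the last enzyme of that route, at 94.3, 179.7, 149 and 159.6 against 38.4, 36.8, 35.0 and 42.1. Here the 4OHT libraries held the highest Phgdh value and corn oil replicate 2 the highest Psph value. Mthfd2, a mitochondrial folate enzyme, was 2.66-fold higher, and Nupr1, a stress-induced chromatin protein whose promoter element is printed above, 2.92-fold. The 2 that were lower, Atf3 (−0.96, SE 0.16) and Cebpb (−0.62, SE 0.12), are transcription factors, and Atf3 also stands on the list of immediate early genes.

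Among called genes averaging 50 CPM or more and outside the lists, the largest positive difference belonged to Il23a, which encodes a subunit of the cytokine interleukin-23. It was at 149.9, 347, 113 and 332 CPM against 26.3, 30.4, 27.0 and 30.6. Its fold was 7.23 (log2 2.85, SE 0.19, edgeR adjusted p 1.28e-15), and the libraries numbered 2 held more than those numbered 1. Angptl6, a secreted angiopoietin-like protein, followed at 247, 362, 139 and 297 CPM against 47.3, 38.7, 34.5 and 39.2 (log2 2.58, SE 0.17). Aldh1l2, a mitochondrial folate enzyme, was 5.33-fold higher, Got1, the cytosolic aspartate aminotransferase, 5.17-fold, and Bcat2, the mitochondrial branched-chain aminotransferase, 4.60-fold. Fibin (5.72-fold), Nucb2 (5.29-fold), a calcium-binding protein of the secretory route, and Pla2g12a (4.90-fold), a secreted phospholipase, completed the 15 genes with the largest positive difference above that level. For most of these the smallest difference was in 4OHT replicate 1, as the plot of the largest differences shows.

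**Figure D2:**
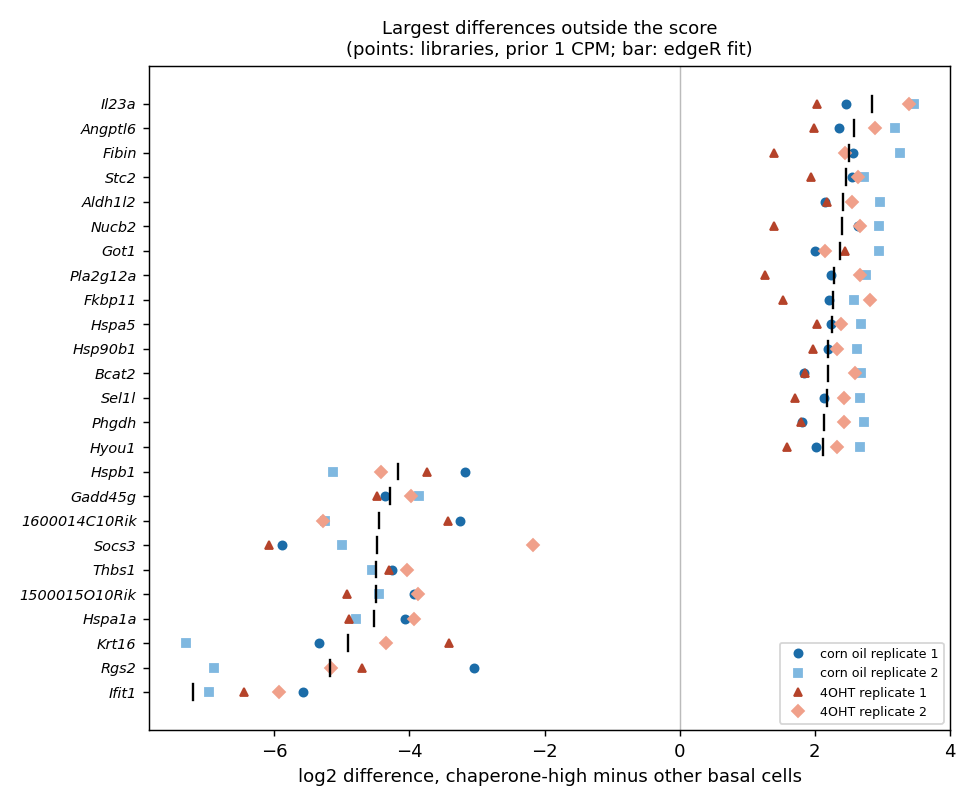
Log2 difference between chaperone-high and other basal cells (chaperone-high minus other) for the 15 largest higher and 10 largest lower genes by edgeR. Points are single libraries, from CPM with a prior of 1, and the bar is the fitted log2 fold change, which for Ifit1 rests on 2 UMIs in chaperone-high cells. All libraries lie on the same side of 0 for each gene.

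All 21 tested genes of hypoxia and glycolysis were higher, with a median log2 of 1.01. Car9, a carbonic anhydrase induced by hypoxia-inducible factors, was at 394, 395, 385 and 504 CPM against 145, 112, 129 and 113 (log2 1.66, SE 0.14). Bnip3, a mitophagy receptor, was at 909, 1286, 1152 and 1111 CPM against 425, 327, 379.6 and 370.4. Ankrd37 was 3.09-fold and Higd1a 2.50-fold higher. In contrast to the score genes, Car9 and Bnip3 differed little between libraries.

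Genes of collagen modification and export, such as the collagen chaperone gene Serpinh1 (2.26-fold, 2205, 2676, 2052 and 2238 CPM against 1149.9, 1009, 793 and 889.7) and the prolyl hydroxylase subunit P4ha2 (3.17-fold), were higher in 7 of 15 and lower in 0. The listed matrix genes were mostly lower, and those named here are not collagens. Of 26 tested genes of basement membrane and matrix, 1 (Lamc1, 0.39) was higher and 16 were lower, with a median log2 of −0.78. Sparc, a collagen-binding matrix protein, was at 556, 472, 397 and 501 CPM against 1010.4, 1646, 679.8 and 1056 (log2 −1.21, SE 0.13). Thbs1, thrombospondin 1, was at 9.67, 10.3, 9.44 and 16.0 CPM against 204, 264, 206 and 278, from 17 UMIs in chaperone-high cells, and Bgn, the proteoglycan biglycan, was 5.70-fold lower.

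Basal identity genes were lower in 20 of 25 and higher in 2, Igfbp2 (0.84) and Snai2 (0.72), with a median log2 of −1.29. Apoe, a lipid-binding secreted protein of this list, was at 169, 139, 135 and 182 CPM against 1193, 1728, 877 and 1152 (log2 −3.04, SE 0.15). Sfn, the epithelial 14-3-3σ, was 5.38-fold lower, and Vim, the intermediate filament vimentin, was at 53.2, 74.5, 293 and 214 CPM against 348, 384, 752 and 588, with more in both 4OHT libraries than in either corn oil library. Contractile genes were lower in 10 of 19 and higher in 0 (median −0.41). Tagln, a smooth muscle actin-binding protein, was at 846, 809, 2007 and 1172 CPM against 2776, 2723, 2530.0 and 3531, and Mylk, myosin light chain kinase, at 106, 144, 217 and 182 against 375, 579.9, 285 and 395. For both, 4OHT replicate 1 was nearest to its other basal cells.

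Cytosolic heat shock genes moved opposite to the ER chaperones, with 14 of 18 lower and 0 higher (median log2 −1.32). Hspa1a, the inducible cytosolic HSP70, was at 87.0, 59.1, 63.7 and 73.4 CPM in chaperone-high cells and 1474, 1659, 1918 and 1139.8 in other basal cells, 23.0-fold lower (log2 −4.52, SE 0.16, edgeR adjusted p 2.01e-23). Hspb1, the small heat shock protein HSP27, was at 592, 264, 614 and 386 CPM against 5388, 9264, 8236 and 8285. Hspa8, the constitutive HSP70, was at 483, 151, 397 and 95.8 CPM against 1755, 882, 1879.9 and 560.0, lower in all libraries and more abundant in those numbered 1.

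Interferon response genes were lower in 20 of 20 tested, with a median log2 of −4.30, or −4.05 with the 2 genes without UMIs in chaperone-high cells set to a floor of 3 counts over the group. These genes could pass the filter on low counts through the other basal cells alone, so the count describes genes that were present there. Ifit1 had 2 UMIs in chaperone-high cells and 4828 in other basal cells, a ratio of 145 (exact 95% interval 40.2 to 1199, counting error only). Ifit3 had 1 against 1888, a ratio of 113 (20.3 to 4485). Ifitm3, an interferon-induced membrane protein, was at 365, 293, 817 and 616 CPM against 3073, 3966, 3043 and 2609 (log2 −2.75, SE 0.17), and Isg15, a ubiquitin-like modifier, at 29.0, 7.70, 26.0 and 3.19 against 231, 385, 121 and 87.7. Among other basal cells, corn oil replicate 2 held the most of all 4 of these genes.

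Immediate early genes were lower in 15 of 21 and higher in 0 (median −1.52). Socs3, a feedback inhibitor of cytokine signalling, was at 2.42, 7.70, 7.08 and 47.9 CPM against 201, 276, 543 and 218, with 4OHT replicate 2 closest to its other basal cells. Nr4a1, a nuclear receptor induced within minutes of many stimuli, was at 7.25, 15.4, 11.8 and 31.9 CPM against 97.9, 209.6, 213 and 315. Antioxidant genes went both ways, 5 higher and 9 lower of 17. Fth1, ferritin heavy chain, was 2.50-fold lower, at 2072, 3700.0, 1912 and 2794 CPM against 6322, 8719.6, 4369.6 and 5266, and Sqstm1, the autophagy adaptor p62, was 1.63-fold higher. Also among the genes with the largest lower values were Rgs2, a regulator of G protein signalling (7 UMIs in chaperone-high cells), Krt16, a keratin of stressed epithelium (6 UMIs), and Gadd45g, a stress-induced growth arrest gene, at 19.3, 51.4, 68.5 and 95.8 CPM against 416, 755, 1547 and 1527. The transcripts 1500015O10Rik (22.5-fold) and 1600014C10Rik (21.8-fold) were lower too.

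Ribosomal protein genes and mitochondrially encoded genes shifted by small amounts. Every call among them was lower, in shares above the 18.8% lower over all genes. Cytosolic ribosomal protein genes were lower in 12 of 22 and higher in 0, with a median log2 of −0.25, and Rps4x was at 3522, 3379, 3385 and 3614 CPM against 4707, 4824, 5139 and 5326. Mitochondrially encoded genes were lower in 7 of 13 and higher in 0 (median −0.39), mt-Co3 at 3454, 4950.5, 3204 and 5019 CPM against 4676, 6138, 3786 and 6334. Of 20 cell cycle genes, 4 had counts enough to test and 7 had no UMI in chaperone-high cells. Hmgb2 was higher (0.40, SE 0.13), Tubb5 (−0.43, SE 0.12) and Stmn1 (5 UMIs) lower, and Pcna did not pass. Milk and secretory luminal genes were lower in 4 of 8 and higher in 0, Lcn2 at 379.5, 1379, 335 and 1044 CPM against 1368, 2369, 1013 and 1804. Cholesterol and lipid genes were higher in 2 and lower in 4 of 16. Among them Srebf1, a master regulator of lipid synthesis, was 1.92-fold higher, and Acaca, acetyl-CoA carboxylase, had no UMI in chaperone-high cells against 139 in other basal cells, at least 2.79-fold lower by the floor of 3 counts over the group.

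The same lists were followed along the score, without a test, since the score cut the bins. As means of the 4 libraries, the list of ER chaperones summed to 4652 CPM in the lower 50% of basal cells, 12086 between the 50th and 80th percentile, 27490 up to the 90th, 34977 up to the 95th, 41381 up to the 98th and 51690.5 in the top 2%. Hspa5 alone went from 955 to 16152 CPM. Hypoxia and glycolysis genes summed to 9989 CPM in the lowest bin, 36619.6 in the 80th to 90th percentile and 39727 in the top 2%. Cytosolic heat shock genes fell from 22342 CPM to 4420 and then to 3206 in the same bins, and interferon genes from 6465 to 906 and 540 CPM. Contractile genes went from 12926 to 10817 and 8482 CPM, and cytosolic ribosomal proteins from 102018 to 99727 and 91183. Median UMIs per cell were 3502 in the lowest bin, 4258 in the 80th to 90th percentile and 4378 in the top 2%, so depth moved with these levels, and its part in them was not tested.

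**Figure D3:**
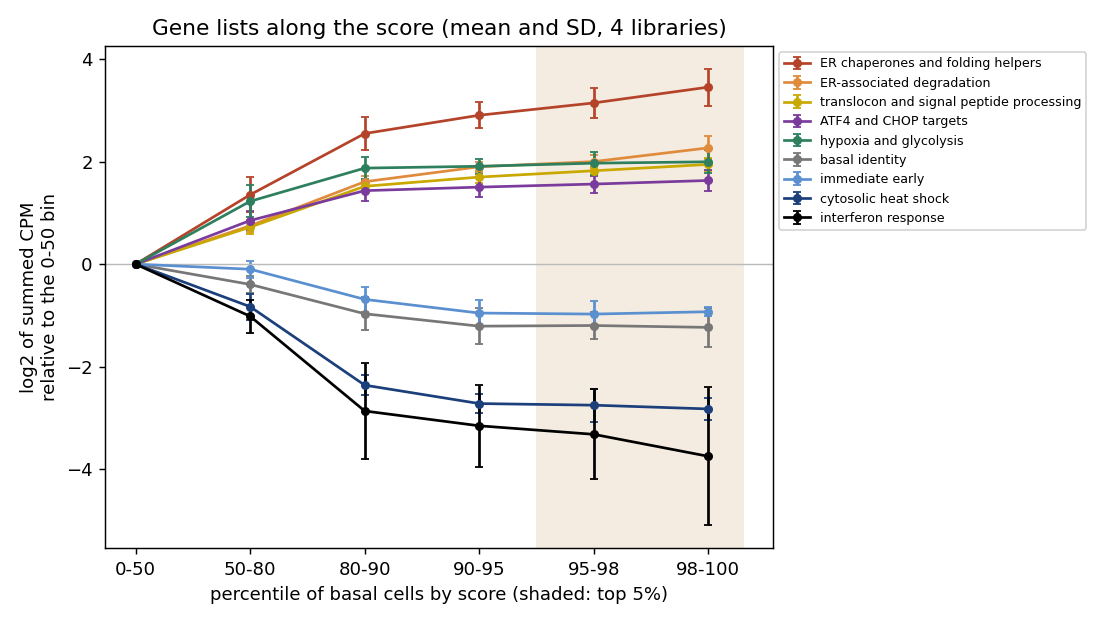
Summed CPM of 9 gene lists in 6 bins of basal cells by percentile of the score, as log2 relative to the lower 50%, with the mean and SD of the 4 libraries. Shading marks the chaperone-high bins. ER chaperones go on climbing to the last bin. From the 80th percentile on, the heat shock and interferon lists fall by less than over the lower bins, and the hypoxia list changes less than either.

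Chaperone-high cells were next compared with the 1055 basal cells just below them, between the 80th and 95th percentile, a comparison added after the values above were known. In the same edgeR fit with a library block, 4934 genes were tested, of which 102 were higher (2.07%) and 136 lower (2.76%), in all 238 (4.82%). Of these, 213 had also passed against all other basal cells, 212 of them with the same sign. Since both comparisons share the chaperone-high cells, that overlap is a description. The count depended on the fit: DESeq2 called 78, the fit without the library block 0 (259 at an unadjusted p under 0.05), and leaving out one library gave 151 (corn oil replicate 1), 70 (corn oil replicate 2), 376 (4OHT replicate 1) and 63 (4OHT replicate 2).

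In this narrower comparison ER chaperones were still higher in 17 of 30 and lower in 0, with a median log2 of 0.48 beside 0.01 over all genes. Hspa5 was at 16119, 15524, 11398 and 9563 CPM against 8789, 8756, 6272 and 5369 in the cells next in score (log2 0.80, SE 0.04, edgeR adjusted p 1.64e-11). Dnajb11, a co-chaperone of BiP, was at 399, 462, 257 and 402 CPM against 175, 258, 187 and 265 (log2 0.74, SE 0.11), and Il23a at 149.9, 347, 113 and 332 against 68.0, 141, 63.0 and 118 (log2 1.18, SE 0.13). All 4 libraries were higher for these 3 genes. Of the ATF4 and CHOP targets 3 of 37 were higher (Wars, Stc2 and Phgdh) and 0 lower, of the N-glycosylation genes 6 of 19, and of the genes for degradation 4 of 20. No gene of hypoxia and glycolysis passed, of 21 tested (median 0.06, 7 at an unadjusted p under 0.05). Nucb2, Gsto1, Fkbp11, Npc1 and Iscu were among the 10 largest higher genes averaging 50 CPM or more, between 1.64-fold and 1.99-fold.

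Genes lower than in the cells next in score included 4 of 17 heat shock genes, 4 of 17 immediate early genes, 4 of 20 basal identity genes and 10 of 22 ribosomal protein genes, the last with a median log2 of −0.16. Crispld2, a secreted protein, was at 21.8, 33.4, 37.8 and 73.4 CPM against 58.3, 128, 51.0 and 151 (log2 −1.25, SE 0.21). Cxcl14, a chemokine, was at 91.9, 69.3, 102 and 319 CPM against 98.7, 237, 386 and 413, a difference carried by corn oil replicate 2 and 4OHT replicate 1. Errfi1, a feedback inhibitor of the EGF receptor, was 1.75-fold lower, and Gadd45b, a stress-induced gene, 1.88-fold.

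To see whether chaperone-high cells formed a group of their own, all basal cells were clustered without the 12 genes of the rule. Of 12 clusters, 3 held 327 of the 351 chaperone-high cells (93.2%) and 2157 of all basal cells (30.7%). In none of the 3 were they the majority. The first held 1028 cells, of which 138 were chaperone-high, 1, 70, 0 and 67 by library, so it came almost wholly from the libraries numbered 2. The second held 605 cells and 138 chaperone-high cells from all libraries (39, 33, 45 and 21). The third held 524 cells and 51 chaperone-high cells, mostly from the libraries numbered 1 (25, 1, 23 and 2). A further 18 lay in a cluster of 450 cells, all 18 in 4OHT replicate 1. The libraries numbered 1 and 2 thus supplied their chaperone-high cells from partly different clusters, across both treatments.

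Tfap2c, the targeted gene (chromosome 2, 172549593 to 172558622, plus strand), was at 377, 421, 382 and 393 CPM in chaperone-high cells and 389, 277, 277 and 322 in other basal cells. It was higher in 3 of 4 libraries, and the difference did not pass the test (log2 0.25, SE 0.13, edgeR adjusted p 0.16). With the top 2% in place of the top 5% the sign turned, to −0.13, while with the top 10% (0.46) and with a stricter basal rule (0.64) the difference passed. In luminal keratin cells Tfap2c was at 45.2, 29.3, 45.7 and 26.5 CPM. Along the score it was not monotonic: the mean of the libraries was 191 CPM in the lower 50%, 407, 527 and 463 in the next bins, 424 between the 95th and 98th percentile and 347 in the top 2%. The plot of Tfap2c along the score shows the rise over the lower bins in every library. Beyond the 90th percentile the libraries diverged. Between treatments, Tfap2c in chaperone-high cells differed by −0.06 on the log2 scale (SE 0.28, edgeR adjusted p 0.998), 4OHT minus corn oil. The counts do not tell exons apart and do not measure the deletion itself.

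**Figure D4:**
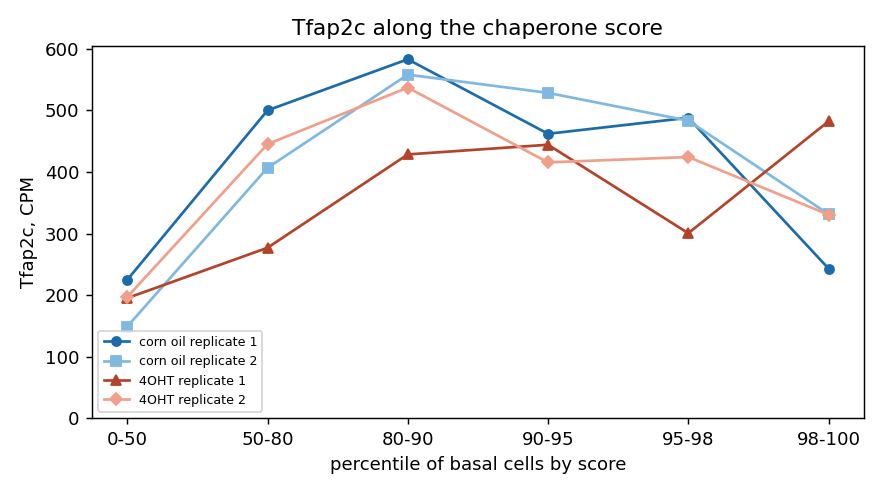
Tfap2c in CPM against the percentile of basal cells by chaperone score, 1 line per library. In every library the lowest value is that of the lower 50%, and 3 of 4 libraries peak between the 80th and 90th percentile.

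The share of basal cells that were chaperone-high was 4.41% (66 of 1496, exact 95% interval 3.43 to 5.58), 5.38% (104 of 1933, 4.42 to 6.48), 6.05% (86 of 1421, 4.87 to 7.42) and 4.36% (95 of 2178, 3.54 to 5.31). The intervals cover counting error only. The mean was 4.90% ± 0.68 in corn oil and 5.21% ± 1.20 in 4OHT libraries (SD, n = 2 each), a difference of 0.31 points that was within the spread between replicates. The two-sided exact permutation test gave p = 1, where the smallest p that 2 libraries against 2 allow is 0.333. Between the libraries numbered 1 the difference was 1.64 points and between those numbered 2 it was −1.02, so the replicates went opposite ways. With at least 3000 UMIs per cell the difference turned to −0.46, and with a stricter basal rule to −0.97.

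Within chaperone-high cells, 4OHT and corn oil libraries were compared over 3933 genes, and 0 passed the edgeR test, fitted without pairing the libraries by number (0.0%, smallest adjusted p 0.493), with 183 at an unadjusted p under 0.05. DESeq2 also called 0, with 76 at an unadjusted p under 0.05. Leaving out one library gave between 10 (corn oil replicate 2) and 53 (4OHT replicate 2) calls, in fits where the lone sample of a group is assumed to vary like the others, so the count of 0 is not a sign of equal expression. Values follow for the 5 genes of smallest p among those averaging 50 CPM or more. Vcam1, a cell adhesion protein, was at 14.5, 0, 139 and 144 CPM (log2 4.18, SE 0.70), and Vim at 53.2, 74.5, 293 and 214 CPM (1.96, SE 0.36). Prss23, a secreted serine protease, was at 109, 118, 604 and 307 CPM (1.98, SE 0.38), and Phlda3, a p53 target, at 55.6, 43.7, 227 and 150.1 CPM (1.90, SE 0.37). All 4 genes had both 4OHT libraries above both corn oil libraries. They were chosen by p from these same values, so this separation is only a description. None of the 4 passed the adjustment in the unpaired fit, a call that depends on leaving the libraries unpaired.

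Hspa5 ran the other way, at 15822 ± 421 CPM in corn oil and 10480 ± 1298 CPM in 4OHT libraries (SD, n = 2 each). The fitted change was −0.62 on the log2 scale (SE 0.12, edgeR adjusted p 0.493 in the same unpaired fit). ER chaperones as a list had a median log2 of −0.27, beside −0.01 over all genes, with 0 of 30 called and 3 at an unadjusted p under 0.05. Basal identity genes had a median of 0.77 and contractile genes of 0.54, with 0 of 17 and 0 of 19 called and 4 of each at an unadjusted p under 0.05. Of the score genes, only Dnajb9 had a higher mean in 4OHT libraries, at 3757 ± 1444 CPM against 2384 ± 122 in corn oil. Its highest value was 4778 CPM in 4OHT replicate 1. Means were lower for Derl3 (217 ± 163 against 422 ± 166) and Creld2 (1175 ± 660 against 1667 ± 474). They were also lower for Pdia4 (856 ± 615 against 1688 ± 1069) and, slightly, Sdf2l1 (2372 ± 1084 against 2450 ± 562). The pooled score of chaperone-high cells was nearly even, at 86.0, 86.2, 84.8 and 82.7. More of one score gene thus went with less of the others, and their directions are not independent.

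**Figure D5:**
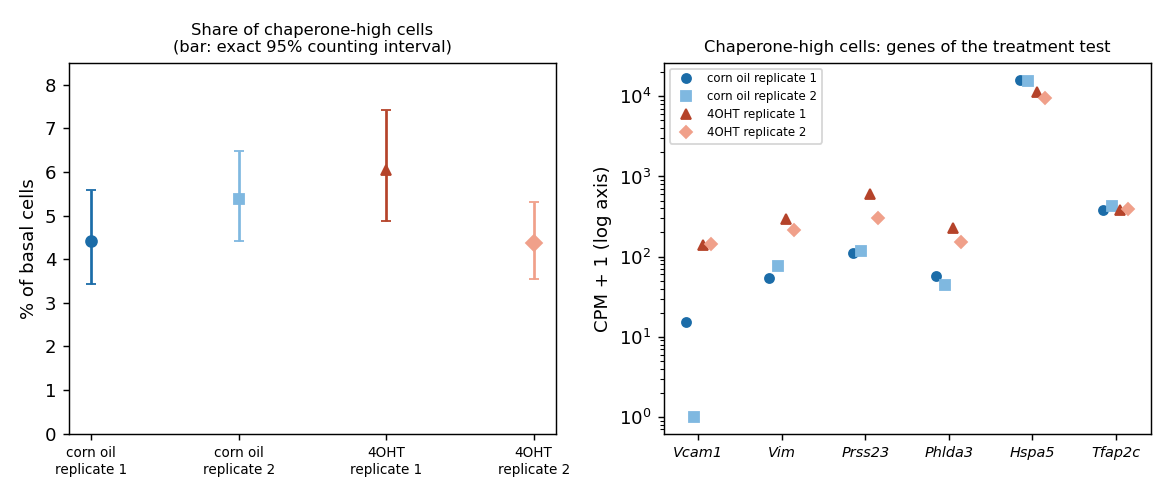
Left, share of basal cells that were chaperone-high in each library, with exact 95% intervals. Right, CPM + 1 (log axis) in chaperone-high cells for 5 genes and for Tfap2c. The 5 were chosen for the smallest p between treatments among genes averaging 50 CPM or more. Vcam1, Vim, Prss23 and Phlda3 lie higher in both 4OHT libraries and Hspa5 lower, while Tfap2c lies between 377 and 421 CPM in all 4; no gene passed the adjusted test in the fit that does not pair libraries by number.

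Finally, the interaction of cell state and treatment asked whether the gap between chaperone-high and other basal cells differed between treatments. Of 9845 genes, 24 had a more positive gap under 4OHT (0.244%) and 9 a more negative one (0.0914%), 33 in all (0.335%) by edgeR, with 607 at an unadjusted p under 0.05. DESeq2 called 0 (145 unadjusted), and leaving out one library gave 15 (corn oil replicate 1), 12 (corn oil replicate 2), 9 (4OHT replicate 1) and 42 (4OHT replicate 2). Slpi, a secreted protease inhibitor, was at 1366, 747, 2897 and 2015 CPM in chaperone-high cells and 9048, 11416, 12412 and 10501 in other basal cells, so it was lower in chaperone-high cells of every library, by less under 4OHT. Of listed genes, the 33 held Oxtr (1.60) and Mylk (1.08) among 20 contractile genes, Ifitm3 (1.31) among 21 of the interferon response, Mt1 (−0.88) and Mt2 (−0.70) among 17 antioxidant genes, and Atf3 (−1.09), on the lists of ATF4 and CHOP targets and of immediate early genes, each with its log2 difference of the gap, 4OHT minus corn oil. No ER chaperone was called, of 31 tested, where the overall share of 0.335% leaves little room for a call.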

How the data were processed

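Single-cell 3′ libraries of 4 mice were analysed from the deposited raw UMI counts of each gene in each cell. The authors produced them with Cell Ranger 3.0.1 and mm10, per the submitters' processing notes. Strand and cell calling settings are not given in the sources used here. Cells, genes and lists were chosen with earlier results of these data known. Raw counts were summed per library and cell group. CPM was computed from these sums. Tests used edgeR 4.0.16 (R 4.3.3; TMM, filterByExpr, quasi-likelihood F-test, Benjamini-Hochberg, threshold 0.05), with library as a block for differences between cell groups of the same libraries, and without a block between treatments. DESeq2 1.42.0 was an alternative. Shares were compared by an exact permutation test. Clusters used 2000 variable genes, 30 components, 15 neighbours and Leiden resolution 0.8 (scanpy 1.11.5, leidenalg 0.10.2).

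Doublets were scored with Scrublet, whose own threshold marked 0.07% to 0.52% of cells and was not used. An alternative left out the 682 cells with the highest scores (0.8% per 1000 cells). Of the 28 gene lists, 3 listed symbols were not in the files, and a gene on 2 lists counts in both. Positions are from GENCODE M21 (GRCm38), a later release than the authors'. Genes were named by a rule. From called genes averaging 50 CPM or more with 1 direction in all 4 libraries, the 15 largest higher and 10 largest lower were taken. Up to 4 genes of smallest p per list were added. For treatment and interaction, the 5 genes of smallest p among those averaging 50 CPM or more were named. Against the cells next in score, the 10 largest called genes in each direction were named, under the same limits of level and direction. Others are stated to be named after their values were seen or are the only ones of their list in a direction. Trp63, Myh11 and the genes that did not pass were picked as markers or exceptions.

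On simulated counts with 200 genes changed by a log2 of 2, the test recovered 86.2% of those tested for cell state (8606 genes, 8 false calls), 76% for treatment within chaperone-high cells (3608 genes, 6 false calls) and 43.2% for the interaction (8754 genes, 0 false calls). Exact (Clopper-Pearson) intervals and the floor of 3 counts cover counting error only.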

Additional observations from a re-analysis of the deposited data

Results flagged for a closer look

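The gap between chaperone-high and other basal cells differed between treatments for 33 genes in the edgeR interaction test, where DESeq2 called 0. For the 5 with the smallest p, the difference of the log2 fold change is given as 4OHT minus corn oil, after the log2 gap in each library (corn oil replicates 1 and 2, 4OHT replicates 1 and 2). Ifitm3 had gaps of −3.07, −3.76, −1.90 and −2.08 and a difference of 1.31 (SE 0.21, edgeR adjusted p 2.84e-06). Vcam1 had gaps of −2.04, −5.62, −0.32 and 0.94 and a difference of 3.04 (SE 0.53, adjusted p 6.02e-05), and corn oil replicate 2 held none of its UMIs in chaperone-high cells. Slpi had gaps of −2.73, −3.93, −2.10 and −2.38 and a difference of 0.97 (SE 0.17, adjusted p 6.02e-05). Ctgf, a matrix-associated growth factor gene, had gaps of −2.37, −3.49, −0.34 and −2.92 and a difference of 1.40 (SE 0.26, adjusted p 0.000331), which rested on 4OHT replicate 1 and turned to −0.36 without it. Mt1, a metallothionein gene, had gaps of 0.10, −1.19, −1.22 and −1.41 and a difference of −0.88 (SE 0.17, adjusted p 0.00037), and corn oil replicate 1 alone had a positive gap.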

How the results depend on the processing

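Of 116 named genes in the comparison with other basal cells, 95 kept their direction and side of the threshold under every alternative run. Its 2943 calls became 1847 with no replicate block, that is without pairing the 2 sums of each library, 1961 with the top 2% of cells, 1946 with cells chosen and measured on separate random parts of the UMIs, and 2313 to 2709 without single libraries. Under the replicate block, which pairs libraries by number, the 0 calls between treatments became 137, with Vcam1 (adjusted p 1.59e-16), Hspa5 (7.90e-13), Prss23 (5.44e-13), Vim (7.84e-10) and Phlda3 (7.15e-08) among them; deviations of same-numbered libraries correlated at r = 0.45 over 3933 genes, but with 2 pairs and no label that ties the numbers to mice, the pairing is only a hint. They became 23 without a filter on low counts and 10 to 53 without single libraries. The 33 interaction calls became 0 with DESeq2, 18 with the top 2%, 8 with at least 3000 UMIs, 19 with other basal cells matched on depth, and 9 to 42 without single libraries. The 238 calls against the cells next in score became 78 with DESeq2, 0 with no replicate block and 63 to 376 without single libraries. The share difference of 0.31 points became −0.46 with at least 3000 UMIs, −0.97 with a stricter gate (at least 10 basal UMIs and over 10 times the luminal ones), and −0.53 to 1.16 without single libraries. Causes were not tested. Values near 0 changed sign. Pcna against other basal cells went from −0.04 to −0.20 to 0.063 without single libraries, 0.026 with the top 5% per library, 0.061 with at least 3000 UMIs, 0.46 with separate UMI parts and 0.0057 without high doublet scores. Tfap2c against other basal cells went to −0.13 with the top 2%, and between treatments from −0.06 to −0.19 to 0.067 without single libraries, 0.49 with the top 2%, 0.15 with at least 3000 UMIs, 0.043 without high doublet scores and 0.080 with the stricter gate. The Ctgf interaction went to −0.36 without 4OHT replicate 1 and to 2.35 without 4OHT replicate 2. Depth limits rare genes: of 20 cell cycle genes, 4 could be tested against other basal cells and 7 had no UMI in chaperone-high cells.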
